A study of Mus musculus with 9 samples.

Results

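The Slc25a genes encode the mitochondrial solute carriers, and every row of the deposited matrix whose symbol starts with Slc25a was taken: 47 of 23420 genes, from Slc25a1 to Slc25a54. They were read in 9 bulk RNA libraries from the brain endothelium of mice, with 3 libraries per genotype in WT, APP/PS1 and APP/PS1xRIPK1KD. All animals were C57BL/6 mice aged 6 months and labelled male, and each library came from 20000 sorted cells. WT mice carried no transgene named in the labels. APP/PS1 mice are a transgenic model of brain amyloid, and APP/PS1xRIPK1KD mice combine it with a change at Ripk1, the gene of a kinase that controls cell death and inflammatory signalling, whose form "KD" the labels do not spell out. The promoters of the transgenes and the cells that express them are not given in the sources used here. The cells were sorted from brain homogenate as CD31+CD45-, which keeps cells with the endothelial protein Pecam1 and leaves out leukocytes.

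Members of the family share a fold of repeated transmembrane units and mostly sit in the inner mitochondrial membrane, where each exchanges one class of solute between the cytosol and the matrix. Adenine nucleotide and phosphate carriers supply ATP synthase, carboxylate and amino acid carriers move reducing equivalents and carbon, and others carry iron, glutathione, NAD, folate or coenzyme A. Brain endothelial cells form the blood-brain barrier and are known for a higher mitochondrial content than endothelium of many other tissues.

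The libraries held between 16263792 (APP/PS1 replicate 1) and 52413200 (APP/PS1 replicate 3) expected counts. The ribosomal RNA precursor Rn45s took 29.6% to 33.8% of them in WT, 15.8% to 28.6% in APP/PS1 and 20.2% to 26.4% in APP/PS1xRIPK1KD. Its share was thus higher in every WT library than in any other library. Levels are given as CPM, that is counts scaled to a common library size with TMM factors, in the order of replicates 1 to 3. The 8 endothelial markers were all present and summed to between 13102 and 16073 CPM. Ripk1 stood at 34.9 to 48.1 CPM in WT, 40.9 to 75.3 in APP/PS1 and 31.4 to 44.9 in APP/PS1xRIPK1KD, and these ranges overlapped. Against the male label, Xist reached 264 to 534 CPM in replicates 1 and 2 of every genotype and at most 4.78 CPM in replicate 3, and 4 Y-linked genes together gave at most 0.434 CPM in the former and 149.8 to 185 CPM in the latter. Results are therefore also given for replicates 1 and 2 alone. Markers of mural cells (12 of 12 in the matrix, none at 0 throughout) summed to 12.7 to 56.6 CPM in WT, 179 to 232 in APP/PS1 and 67.9 to 257 in APP/PS1xRIPK1KD. Fibroblast markers (6 of 6, Lum at 0 in all libraries) summed to 0.132 to 1.24, 6.82 to 13.4 and 2.06 to 7.26 CPM in that order of genotypes. Choroid plexus markers (6 of 6, none at 0 throughout) summed to 55.9 to 90.2, 70 to 155 and 183 to 319 CPM. The mural and fibroblast sums were lowest in WT and the choroid plexus sums highest in APP/PS1xRIPK1KD, each without overlap. The other pairs of genotypes overlapped in these sums. Sums of astrocyte, oligodendrocyte, microglial, neuronal and leukocyte markers overlapped between all genotypes. The part of any of these sums in the carrier levels was not tested. In bulk RNA, fewer cells of a type and less RNA per cell cannot be told apart.

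Of the 47 carriers, 34 averaged at least 5 CPM over the 9 libraries and 10 averaged under 0.5 CPM. The filter on low counts kept 40 members, and a member could pass it through 1 genotype alone. The 7 others were Slc25a21, Slc25a31, Slc25a34, Slc25a41, Slc25a43, Slc25a48 and Slc25a54. Slc25a41 and Slc25a48 had 0 counts in every library, which allows up to 0.189 CPM in the shallowest library and 0.0541 CPM in the library with the lowest floor, taking 3 counts as the limit that a count of 0 allows. Summed over the 47 members, the family took 1482, 1389 and 1428 CPM in WT, 1422, 1438 and 1477 CPM in APP/PS1, and 1479, 1384 and 1464 CPM in APP/PS1xRIPK1KD. The sums overlapped between all genotypes, with means of 1433 ± 46.7, 1446 ± 28.4 and 1442 ± 51.1 CPM (SD, n = 3 each). As an unscaled share of all expected counts, the family took 0.125% to 0.136% in WT, 0.139% to 0.166% in APP/PS1 and 0.151% to 0.160% in APP/PS1xRIPK1KD. With Rn45s left out of the total, the shares were 0.188% to 0.199%, 0.195% to 0.198% and 0.194% to 0.205%, and overlapped. Between 41.5% and 44.6% of each sum came from Slc25a5, Slc25a3, Slc25a4 and Slc25a1. By transport class, nucleotide and phosphate carriers made up 45.8% to 51.4% of the family's CPM in each library, and cofactor and glutathione carriers 18.3% to 20.9%. Carboxylate, keto acid and acyl carriers made up 12.9% to 16.6% and amino acid carriers 6.79% to 10.8%. The class that holds uncoupling-protein-like, outer membrane and less characterised carriers made up 6.88% to 9.26%, and the iron carriers 0.793% to 1.75%.

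**Figure D1:**
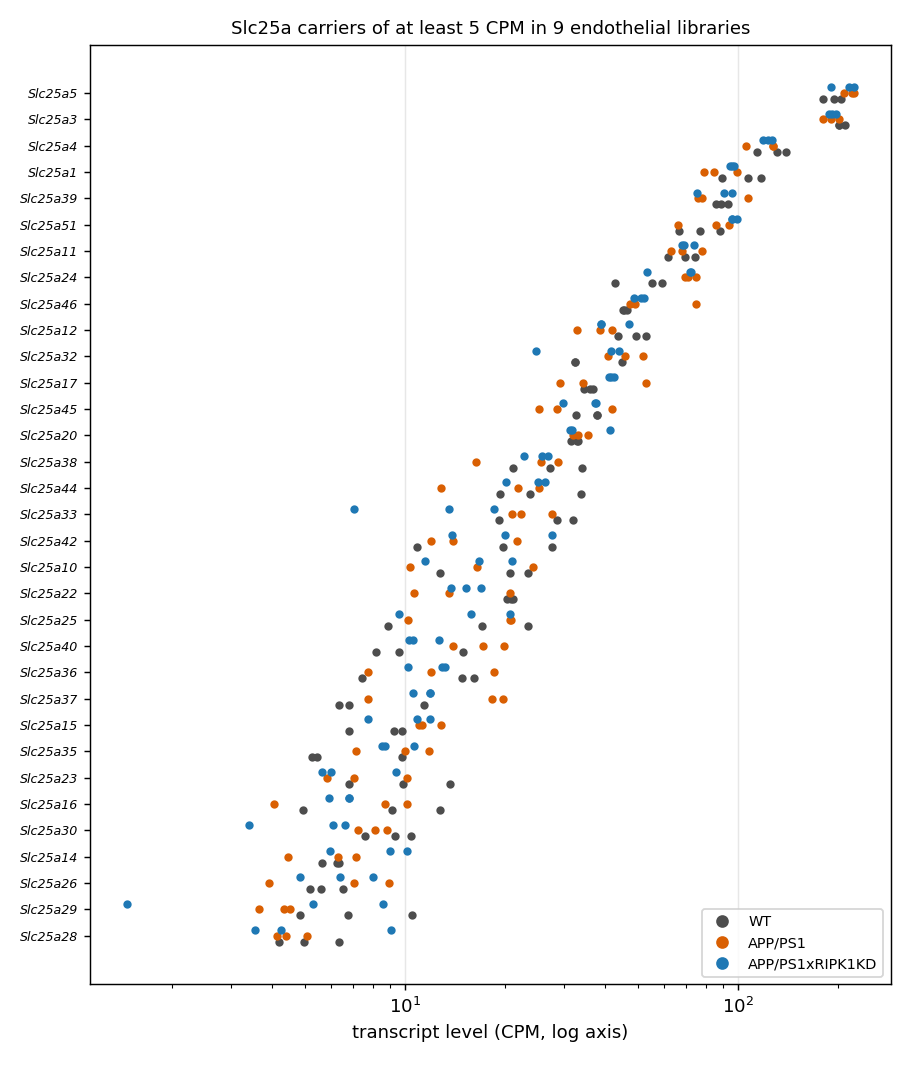
Each row is 1 of 33 of the 34 Slc25a carriers with a mean of at least 5 CPM (1 is left out of the plot), each point is 1 library, and the horizontal log axis is the transcript level in CPM, with WT in grey, APP/PS1 in orange and APP/PS1xRIPK1KD in blue. Slc25a5, Slc25a3 and Slc25a4 lie above 100 CPM in all 9 libraries, and the points of the 3 genotypes overlap in most rows.

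Levels of different genes were compared per kilobase of the principal transcript, over the 9 libraries. Slc25a5, an adenine nucleotide carrier that exchanges matrix ATP for cytosolic ADP, was first at 167 ± 12.4 CPM per kb (SD over 9 libraries). Next came Slc25a3, the phosphate carrier, at 121 ± 5.57, Slc25a4, the second adenine nucleotide carrier, at 64.4 ± 5.09, and Slc25a1, the citrate carrier, at 57.7 ± 6.9 CPM per kb. Slc25a39, a carrier needed for glutathione import, stood at 52.3 ± 6.23 and Slc25a11, the 2-oxoglutarate carrier, at 40.7 ± 3.15 CPM per kb. Slc25a4 and Slc25a1 differed by less than the larger of their SDs, as did Slc25a1 and Slc25a39, while the gaps between Slc25a5, Slc25a3 and Slc25a4 exceeded their SDs. Below them, Slc25a17, a peroxisomal carrier, stood at 22.5, Slc25a51, the NAD carrier, at 19.3, Slc25a20, the carnitine/acylcarnitine carrier, at 18.8 and Slc25a24, a calcium-regulated ATP-Mg/phosphate carrier, at 18.5 CPM per kb, and the last 3 lay within 1 SD of each other. The length chosen matters to this order: over the union of all annotated exons, Slc25a5 stayed first at 126 and Slc25a3 went from 121 to 35.3 CPM per kb, under Slc25a4 at 52.7 and Slc25a1 at 44.4. In the authors' deposited table, the mean log2 CPM, which is not divided by length, was 8.42 for Slc25a3, 7.75 for Slc25a4 and 7.66 for Slc25a5. The CPM values here, also not divided by length, averaged 196, 124 and 207, so the place of Slc25a5 differed between the files. On one scale, the carriers listed there other than Slc25a5 all stood higher there than here. Slc25a1, for example, had a mean log2 CPM of 7.22 there and averaged 96.1 CPM here. Slc25a36 and Slc25a53 lay further apart than Slc25a1, at a mean log2 CPM of 5.27 and 2.64 there and at 12.6 and 0.717 CPM here. The cause was not tested. Slc25a5 and Slc25a4 are close paralogs, and the share of reads given to each of them and to processed copies is uncertain in these values.

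No carrier differed between genotypes past an FDR of 0.05 in the edgeR quasi-likelihood test over 13317 genes. In APP/PS1 against WT, 0 of 40 members were called beside 3 of all genes (0.0225%), in APP/PS1xRIPK1KD against APP/PS1 0 beside 1 (0.00751%), and in APP/PS1xRIPK1KD against WT 0 beside 5 (0.0375%). DESeq2 also called 0 members in each comparison. At an unadjusted p under 0.05, edgeR gave 5 members of 40 for APP/PS1 against WT (6.14% of all genes), 1 for APP/PS1xRIPK1KD against APP/PS1 (4.78%) and 3 for APP/PS1xRIPK1KD against WT (6.18%). DESeq2 gave 4, 1 and 3 members in that order, beside 6.85%, 5.64% and 7.00% of all genes. The same order holds for the counts that follow. Libraries of the genotypes did not overlap for 6 (15% beside 10.9% of all genes), 6 (15% beside 9.98%) and 8 members (20% beside 12.0%). The comparisons share libraries, so these counts are not independent of each other. Log2 fold changes were above 0 for 19, 21 and 21 of the 40 members, beside 50.2%, 49.4% and 50.6% of all genes. Their medians were -0.019, 0.0090 and 0.022, beside 0.0019, -0.0034 and 0.0031 over all genes tested. Among members of at least 5 CPM, the median size of the log2 fold change was 0.20, 0.13 and 0.15, beside 0.17, 0.16 and 0.17 for the 9726 genes of that level. With replicates 1 and 2 alone, 0 members were called in each comparison, and 4, 2 and 2 of the 39 tested had an unadjusted p under 0.05 (10.3%, 5.13% and 5.13%, beside 11.1%, 9.09% and 6.44% of all genes).

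**Figure D2:**
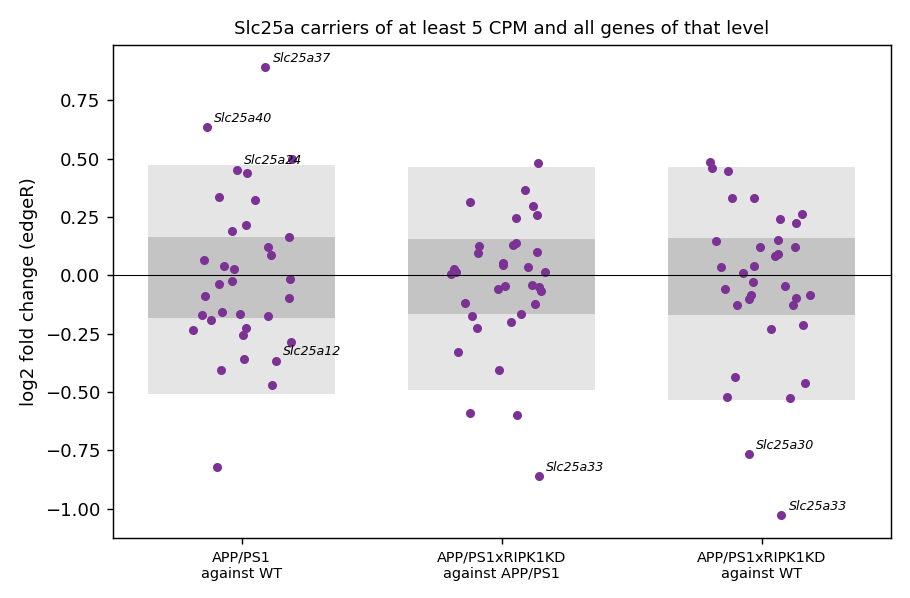
Each purple point is 1 of the 34 Slc25a carriers of at least 5 CPM, placed by its edgeR log2 fold change (vertical axis) in each of the 3 comparisons (horizontal axis, points spread sideways for legibility). Light and dark grey boxes span the 5th to 95th and the 25th to 75th percentiles of all 9726 genes of that level, and names mark members with an unadjusted p under 0.05, of which Slc25a33 lies lowest at -1.03.

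The adenine nucleotide carriers were among the steadiest members. Slc25a5 (chrX:36795651-36798807, GRCm38) stood at 205, 180.4 and 195 CPM in WT, 219.9, 223 and 208 CPM in APP/PS1, and 216, 191 and 224 CPM in APP/PS1xRIPK1KD. All APP/PS1 libraries lay above all WT libraries, while APP/PS1xRIPK1KD overlapped both. The log2 difference of APP/PS1 from WT was 0.17 ± 0.117 (SE, 95% interval -0.09 to 0.42, edgeR FDR = 0.89). Slc25a4 (chr8:46206797-46211284) stood at 139, 131 and 114 CPM in WT, 106, 128 and 128 CPM in APP/PS1, and 119, 123 and 127 CPM in APP/PS1xRIPK1KD, and all genotypes overlapped. The CPM ratio of Slc25a5 to Slc25a4 was 1.52 ± 0.171 in WT, 1.81 ± 0.231 in APP/PS1 and 1.71 ± 0.14 in APP/PS1xRIPK1KD (SD, n = 3 each), with overlapping libraries between 1.37 and 2.07. Slc25a31, the adenine nucleotide carrier known from male germ cells, had 14 counts (0.369 CPM) in WT replicate 2 and 0 in the 8 other libraries. Slc25a3 (chr10:91116574-91124059) stood at 210.5, 201 and 201 CPM in WT, 179.8, 201 and 191 CPM in APP/PS1, and 197, 192 and 188 CPM in APP/PS1xRIPK1KD. Its APP/PS1xRIPK1KD libraries all lay under its WT libraries, by a log2 difference of -0.08 ± 0.11 (SE, 95% interval -0.32 to 0.15). Over the 9 libraries the coefficient of variation was 4.59% for Slc25a3, 7.44% for Slc25a5 and 7.9% for Slc25a4, beside a median of 13% for the 1324 genes between 100 and 500 CPM.

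The start regions of 4 nucleotide carriers are printed because they set the abundant pair Slc25a5 and Slc25a4 beside their paralog Slc25a31, which was near 0, and beside Slc25a33, the member with the smallest p. Each runs from 250 bases before to 50 after the RefSeq start (GRCm38.p6), on the gene's strand: chrX:36795347-36795646 plus, chr8:46211013-46211312 minus, chr3:40708621-40708920 plus and chr4:149774218-149774517 minus. Capitals mark matches, on either strand, to the GC box GGGCGG, the CCAAT box CCAAT, the NRF1 motif (GCGC, any base, then TGCGC) or the ETS motif CCGGAAG. No 2 matches overlap in these sequences.
Slc25a5: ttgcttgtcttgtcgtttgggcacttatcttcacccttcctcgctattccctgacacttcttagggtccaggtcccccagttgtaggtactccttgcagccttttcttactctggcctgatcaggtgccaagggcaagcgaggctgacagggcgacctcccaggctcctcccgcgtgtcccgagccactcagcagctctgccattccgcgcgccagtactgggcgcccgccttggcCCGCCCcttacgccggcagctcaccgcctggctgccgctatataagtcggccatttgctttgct
Slc25a4: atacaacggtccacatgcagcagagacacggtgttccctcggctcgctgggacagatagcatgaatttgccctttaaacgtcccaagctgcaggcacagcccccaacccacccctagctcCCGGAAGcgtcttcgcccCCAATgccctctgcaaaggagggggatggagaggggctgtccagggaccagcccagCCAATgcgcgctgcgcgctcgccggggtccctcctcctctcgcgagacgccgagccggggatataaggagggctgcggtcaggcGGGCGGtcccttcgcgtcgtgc
Slc25a31: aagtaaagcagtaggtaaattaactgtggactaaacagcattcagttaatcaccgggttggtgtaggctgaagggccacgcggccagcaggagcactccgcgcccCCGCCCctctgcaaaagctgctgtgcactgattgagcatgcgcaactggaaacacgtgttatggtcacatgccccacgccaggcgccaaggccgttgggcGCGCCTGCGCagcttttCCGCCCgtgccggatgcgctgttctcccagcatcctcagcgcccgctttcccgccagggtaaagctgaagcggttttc
Slc25a33: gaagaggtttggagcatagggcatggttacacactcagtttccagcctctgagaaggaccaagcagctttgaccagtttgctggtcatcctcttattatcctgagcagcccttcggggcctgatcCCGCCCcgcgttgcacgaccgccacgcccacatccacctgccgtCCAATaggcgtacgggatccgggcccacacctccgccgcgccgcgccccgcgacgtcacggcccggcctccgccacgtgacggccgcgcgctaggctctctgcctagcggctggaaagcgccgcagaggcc
The table of RefSeq start regions held 36 of the 47 members, with 46 starts. A GC box stood in 38 of these 46 windows (82.6%), beside 61.5% of the 12489 windows of genes tested and 35.7% of all 32851 windows. It stood in 32 of 34 windows of members of at least 5 CPM and 6 of 12 windows of members under 5 CPM. These windows belong to 26 and 10 genes, and a gene with several starts is counted once per start. Windows of other genes matched by level were not compared. A CCAAT box stood in 22 of the 46 (47.8%, beside 37.5% for genes tested and 37.4% for all), an ETS motif in 7 (15.2%, beside 16.5% and 8.86%) and an NRF1 motif in 2 (4.35%, beside 9.52% and 4.6%), those of Slc25a3 and Slc25a31. A match is a run of letters and not a measured binding site. Slc25a31, with 0 counts in 8 libraries, held 2 GC boxes and an NRF1 motif.

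Slc25a33 (chr4:149744036-149774277), a carrier of pyrimidine nucleotides, had the smallest p of the family. Its libraries stood at 31.9, 28.7 and 19.2 CPM in WT, 27.8, 22.3 and 21 CPM in APP/PS1, and 7.06, 18.5 and 13.6 CPM in APP/PS1xRIPK1KD. Every APP/PS1xRIPK1KD library lay under every library of the other genotypes, with 18.5 CPM against 19.2 CPM in WT replicate 3 as the closest pair. The mean of 13 ± 5.72 CPM was 2.04-fold lower than 26.6 ± 6.64 CPM in WT on the fitted scale (log2 difference -1.03 ± 0.322 SE, 95% interval -1.73 to -0.33, edgeR FDR = 0.61). Against APP/PS1 the fitted mean was 1.82-fold lower (log2 difference -0.86 ± 0.322 SE, edgeR FDR = 0.98). In replicates 1 and 2 alone the log2 differences were -1.25 ± 0.407 from WT and -0.97 ± 0.406 from APP/PS1. Over the 15 other settings and left-out libraries, the unadjusted p of Slc25a33 was under 0.05 in 15 against WT and in 13 against APP/PS1, and the FDR was never under 0.183. Slc25a36, the other pyrimidine nucleotide carrier, averaged 12.8, 12.7 and 12.1 CPM in the 3 genotypes.

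Of the ATP-Mg/phosphate carriers, which load the matrix with adenine nucleotides under calcium control, Slc25a24 was the most abundant per kilobase. Slc25a24 (chr3:109123149-109168457) stood at 55.4, 42.8 and 59 CPM in WT, 70.9, 74.9 and 69.3 CPM in APP/PS1, and 71.8, 53.3 and 72.4 CPM in APP/PS1xRIPK1KD. All APP/PS1 libraries lay above all WT libraries, and replicate 2 of APP/PS1xRIPK1KD fell within the WT range. The fitted mean was 1.37-fold higher in APP/PS1 than in WT (log2 difference 0.45 ± 0.167 SE, edgeR FDR = 0.787), and in replicates 1 and 2 alone the log2 difference was 0.57 ± 0.211. The authors' deposited table gave Slc25a24 a log2 fold change of 0.48 with an FDR of 0.528. Slc25a25 and Slc25a23, of the same transport class, averaged 16.3 and 8.27 CPM over the 9 libraries and overlapped between genotypes, and Slc25a41 had 0 counts. Slc25a17, the peroxisomal carrier, stood at 36, 34.4 and 36.7 CPM in WT, 29.2, 52.9 and 34.3 CPM in APP/PS1, and 41.6, 40.9 and 42.6 CPM in APP/PS1xRIPK1KD. The last group lay just above WT (log2 difference 0.22 ± 0.204 SE), while APP/PS1 spanned both.

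**Figure D3:**
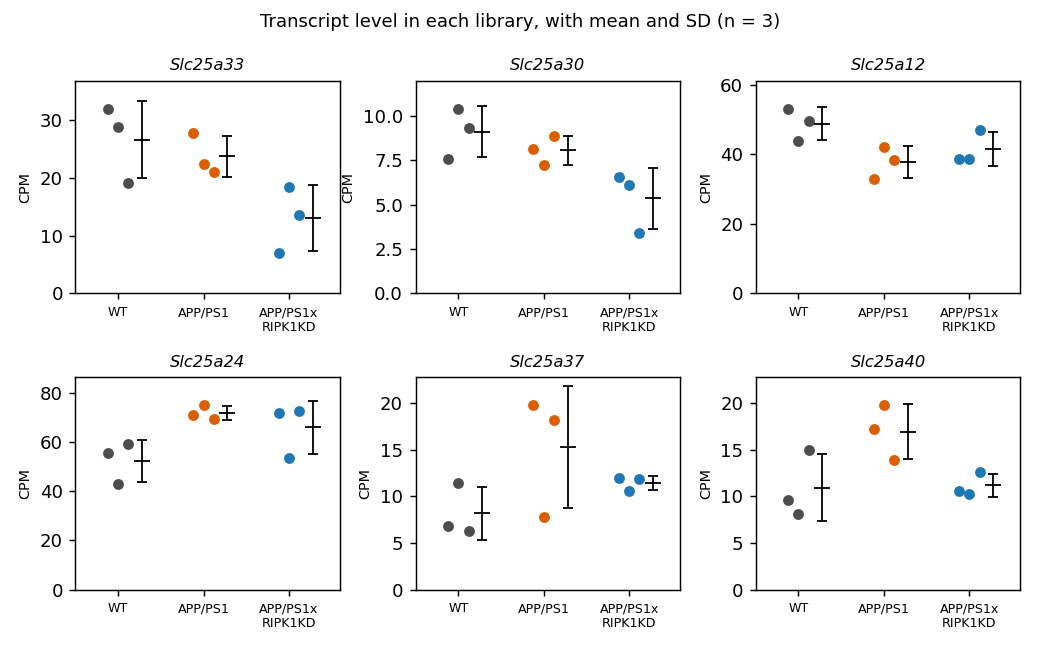
Each panel is 1 carrier, the vertical axis is CPM from 0, points are libraries in the order of replicates 1 to 3, and the bar beside them is the mean ± SD (n = 3). The APP/PS1xRIPK1KD libraries of Slc25a33 (7.06 to 18.5 CPM) and Slc25a30 (3.41 to 6.59 CPM) lie under all others, and the APP/PS1 libraries lie above WT for Slc25a24 and under WT for Slc25a12.

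All 4 tested carboxylate and acyl carriers overlapped between genotypes in every comparison. Slc25a1, which exports citrate for lipid synthesis, stood at 107, 89.6 and 117 CPM in WT, 84.6, 79 and 99.6 CPM in APP/PS1, and 97.1, 96.3 and 94.5 CPM in APP/PS1xRIPK1KD, and all genotypes overlapped. Slc25a11, which exchanges 2-oxoglutarate for malate, stood at 69.5, 61.5 and 74.5 CPM, 68.2, 63 and 78.3 CPM, and 69.1, 68.1 and 74.1 CPM in the same order. Its log2 differences were 0.03 ± 0.138 for APP/PS1 from WT and 0.01 ± 0.138 for APP/PS1xRIPK1KD from APP/PS1, with 95% intervals of -0.27 to 0.33 and -0.29 to 0.31. Slc25a20, which brings acylcarnitines to beta-oxidation, averaged 32.6 ± 0.794, 33.4 ± 1.77 and 34.7 ± 5.6 CPM, and Slc25a10, the dicarboxylate carrier, 19 ± 5.57, 17 ± 7 and 16.4 ± 4.71 CPM (SD, n = 3 each). Slc25a21, the oxodicarboxylate carrier, averaged 0.00227 CPM and was not tested.

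The 9 amino acid carriers summed to 140.2, 149.6 and 128 CPM in WT, 116, 97.7 and 126 CPM in APP/PS1, and 124, 117 and 125 CPM in APP/PS1xRIPK1KD. All WT sums lay above those of the other genotypes. It was the one class of 6 whose WT and APP/PS1 sums did not overlap, and no test was made of a sum. Slc25a12 (chr2:71271063-71367749), the aspartate-glutamate carrier of the malate-aspartate shuttle, contributed most. It stood at 53.1, 43.7 and 49.5 CPM in WT, 32.9, 42 and 38.4 CPM in APP/PS1, and 38.8, 38.8 and 47.1 CPM in APP/PS1xRIPK1KD. APP/PS1 lay under WT in all libraries, with 42 CPM against 43.7 CPM as the closest pair, and APP/PS1xRIPK1KD overlapped both. The log2 difference of APP/PS1 from WT was -0.37 ± 0.163 (SE, edgeR FDR = 0.795), and its unadjusted p was under 0.05 in 5 of the 15 other settings. Its paralog Slc25a13, the aspartate-glutamate carrier of liver, was near 0, with 19 counts in WT replicate 2, 2 and 46 counts in APP/PS1 replicates 1 and 3, 82 and 45 counts in APP/PS1xRIPK1KD replicates 2 and 3, and 0 in the other 4 libraries. Slc25a22, a glutamate carrier, stood at 20.8, 20.3 and 21.1 CPM in WT, 13.6, 10.7 and 20.6 CPM in APP/PS1, and 13.8, 15.3 and 17 CPM in APP/PS1xRIPK1KD. The last group lay under WT (log2 difference -0.43 ± 0.256 SE, 95% interval -0.99 to 0.12), while APP/PS1 replicate 3 reached the WT range.

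Slc25a29, a carrier of basic amino acids, stood at 4.84, 10.5 and 6.74 CPM in WT, 4.34, 3.65 and 4.51 CPM in APP/PS1, and 8.61, 1.46 and 5.3 CPM in APP/PS1xRIPK1KD. The APP/PS1 libraries lay under WT and APP/PS1xRIPK1KD spanned both, with the highest coefficient of variation (48.8%) among members of at least 5 CPM. Slc25a15, the ornithine carrier of the urea cycle, stood at 9.26, 6.77 and 9.8 CPM in WT, 11, 11.2 and 12.8 CPM in APP/PS1, and 11.9, 10.9 and 7.77 CPM in APP/PS1xRIPK1KD. All APP/PS1 libraries exceeded WT by a log2 difference of 0.44 ± 0.283 (SE, edgeR FDR = 0.866). Its paralog Slc25a2 had 37, 0 and 21 counts in WT, 0, 0 and 30 in APP/PS1 and 0 in all APP/PS1xRIPK1KD libraries. The WT mean of 0.514 CPM was 8.39 times the mean limit of 0.0612 CPM that 3 counts per library set for APP/PS1xRIPK1KD. This ratio leaves out the spread of WT, where replicate 2 also had 0 counts, and the genotypes overlapped. The fitted 95% interval of the log2 difference from WT was wide, at -14.1 to -0.82. Slc25a18, the second glutamate carrier, had 1, 0 and 0 counts in WT, 0, 53 and 54 in APP/PS1 and 12, 0 and 0 in APP/PS1xRIPK1KD. It was 1 of the 5 members with an unadjusted p under 0.05 for APP/PS1 against WT (edgeR FDR = 0.795), which thus rested on 2 libraries, and APP/PS1 replicate 1 overlapped WT at 0. Slc25a38, a glycine carrier that serves haem synthesis, averaged 25.4 CPM, and Slc25a44, a carrier of branched-chain amino acids, 23.2 CPM.

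Among the cofactor carriers, Slc25a39 and Slc25a40, both linked to glutathione import, differed in level, at 52.3 ± 6.23 and 4.68 ± 1.37 CPM per kb (SD over 9 libraries). Slc25a39 stood at 93.4, 86 and 89.1 CPM in WT, 76.2, 78.1 and 107 CPM in APP/PS1, and 91.2, 75.6 and 96.1 CPM in APP/PS1xRIPK1KD, and all genotypes overlapped. Slc25a40 (chr5:8422850-8454797) stood at 9.59, 8.17 and 15 CPM in WT, 17.2, 19.8 and 13.9 CPM in APP/PS1, and 10.6, 10.3 and 12.7 CPM in APP/PS1xRIPK1KD. APP/PS1 lay above APP/PS1xRIPK1KD in all libraries, and WT replicate 3 overlapped APP/PS1. Slc25a40 had log2 differences of 0.63 ± 0.282 for APP/PS1 from WT (SE, edgeR FDR = 0.795) and -0.60 ± 0.282 for APP/PS1xRIPK1KD from APP/PS1 (SE, 95% interval -1.21 to 0.01). Both were larger in replicates 1 and 2 alone, at 1.06 ± 0.318 and -0.82 ± 0.315. Both contrasts use the same APP/PS1 libraries. The CPM ratio of Slc25a39 to Slc25a40 averaged 8.74 ± 2.45 in WT, 5.37 ± 2.06 in APP/PS1 and 7.85 ± 0.676 in APP/PS1xRIPK1KD (SD, n = 3 each), and the ratios overlapped between all genotypes.

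Slc25a51 (chr4:45395923-45408766), which brings NAD into the matrix, stood at 76.8, 66.4 and 88.5 CPM in WT, 94.3, 66.1 and 85.9 CPM in APP/PS1, and 99.3, 95.9 and 96.3 CPM in APP/PS1xRIPK1KD. Every APP/PS1xRIPK1KD library lay above every other library. The log2 difference was 0.33 ± 0.157 from WT (SE, edgeR FDR = 0.823) and 0.24 ± 0.157 from APP/PS1 (SE, 95% interval -0.10 to 0.59). Slc25a32, which transports folate or FAD, averaged 36.5, 46.2 and 36.8 CPM in WT, APP/PS1 and APP/PS1xRIPK1KD. Slc25a42, which transports coenzyme A, averaged 18.6 CPM over the 9 libraries and Slc25a26, the S-adenosylmethionine carrier, 6.27 CPM, and both overlapped between genotypes.

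The iron carriers, or mitoferrins, feed haem and iron-sulfur cluster synthesis. Slc25a37 (chr14:69241848-69285112), mitoferrin 1, is known for high levels in erythroid cells. It stood at 6.81, 11.4 and 6.33 CPM in WT, 19.8, 7.77 and 18.2 CPM in APP/PS1, and 11.9, 10.6 and 11.9 CPM in APP/PS1xRIPK1KD. APP/PS1 replicates 1 and 3 were the highest libraries and replicate 2 lay within the WT range, so the genotypes overlapped. The log2 difference of APP/PS1 from WT was 0.89 ± 0.364 (SE, edgeR FDR = 0.795), and 0.58 ± 0.481 in replicates 1 and 2 alone. Erythroid markers (4 of 6 in the matrix, none at 0 throughout) summed to 1163 to 1529 CPM in WT and to 1660, 1123 and 5496 CPM in the 3 APP/PS1 libraries. In APP/PS1xRIPK1KD they summed to 1331 to 2377 CPM. Their part in the Slc25a37 values was not tested. Slc25a28, mitoferrin 2, stood at 6.34, 4.19 and 4.99 CPM in WT, 5.1, 4.12 and 4.39 CPM in APP/PS1, and 9.08, 3.54 and 4.25 CPM in APP/PS1xRIPK1KD, and the genotypes overlapped.

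Slc25a30 (chr14:75760117-75787037), a carrier similar to the uncoupling proteins, stood at 7.58, 10.4 and 9.35 CPM in WT, 8.12, 7.23 and 8.86 CPM in APP/PS1, and 6.59, 6.09 and 3.41 CPM in APP/PS1xRIPK1KD. As for Slc25a33, the last group lay under all other libraries. The log2 difference from WT was -0.77 ± 0.337 (SE, edgeR FDR = 0.776), and that from APP/PS1 was -0.59 ± 0.337 (SE, 95% interval -1.32 to 0.14). In replicates 1 and 2 alone these differences were smaller, at -0.50 ± 0.404 from WT and -0.27 ± 0.405 from APP/PS1. Over the 3 genotypes the choroid plexus marker sums were highest in APP/PS1xRIPK1KD, where Slc25a33 and Slc25a30 were lowest and Slc25a51 highest, and their part in these levels was not tested. Slc25a14, another relative of the uncoupling proteins, stood at 5.63, 6.35 and 6.27 CPM in WT, 4.47, 7.12 and 6.32 CPM in APP/PS1, and 10.1, 5.98 and 8.99 CPM in APP/PS1xRIPK1KD, and overlapped between genotypes. Slc25a46, an outer membrane protein that acts in mitochondrial fusion and fission, stood at 46.3, 45.5 and 45.3 CPM in WT, 49, 75 and 47.6 CPM in APP/PS1, and 48.7, 52.3 and 51.1 CPM in APP/PS1xRIPK1KD. Both transgenic groups lay above WT, whose libraries spanned under 1 CPM, with log2 differences of 0.32 ± 0.178 (SE, edgeR FDR = 0.829) and 0.15 ± 0.178 (SE, edgeR FDR = 0.988). The X-linked Slc25a53, a carrier without a well-known substrate, stood at 0.561, 0.448 and 0.813 CPM in WT, 0.126, 0.578 and 0.576 CPM in APP/PS1, and 0.979, 1.41 and 0.955 CPM in APP/PS1xRIPK1KD. The last group lay above both others, on 2 to 62 counts per library (log2 difference from APP/PS1 of 1.36 ± 1.08 SE, 95% interval -0.99 to 3.70). Slc25a47 had 18, 64 and 22 counts in APP/PS1 and 17, 17 and 20 in APP/PS1xRIPK1KD. These counts overlapped, while in CPM the latter group lay lower without overlap, with 0.388 against 0.437 CPM as the closest pair.

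**Figure D4:**
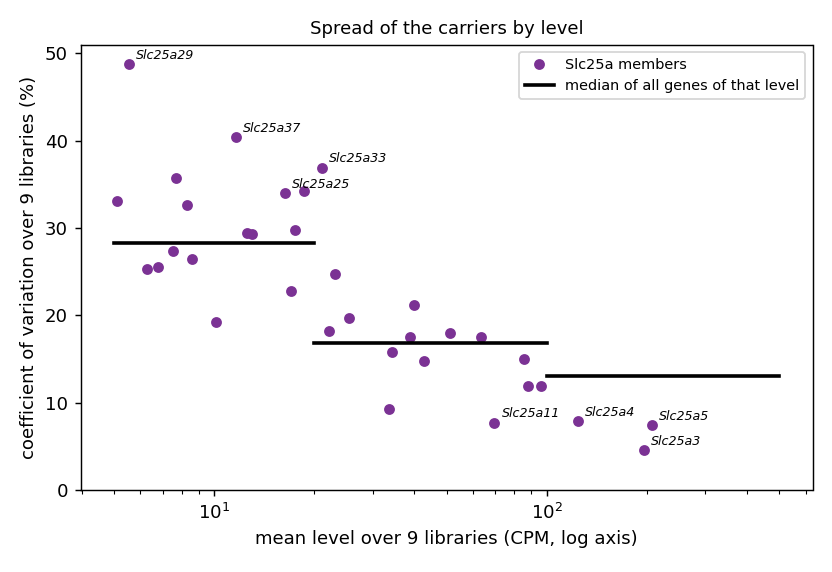
Each purple point is 1 of the 34 Slc25a carriers of at least 5 CPM, with its mean CPM over 9 libraries on a log horizontal axis and its coefficient of variation over those libraries on the vertical axis. Black lines give the median of all genes in 3 ranges of level (28.3%, 16.9% and 13%), and Slc25a3, Slc25a5 and Slc25a4 lie below the last of them.

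The spread of the carriers over the 9 libraries followed their level. The median coefficient of variation was 29.6% for the 16 members between 5 and 20 CPM and 17.5% for the 15 members between 20 and 100 CPM, beside 28.3% and 16.9% for all genes in those ranges. In the upper range Slc25a11 was the steadiest at 7.74% and Slc25a33 the most variable at 36.9%.

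Replicate 3 of each genotype, the libraries with Y-linked transcripts, differed from replicates 1 and 2 without overlap in 2 of the 40 members, both chosen after their values were seen. Slc25a25, an ATP-Mg/phosphate carrier, stood at 8.88, 10.2 and 9.62 CPM in replicate 3 of WT, APP/PS1 and APP/PS1xRIPK1KD and at 15.7 to 23.4 CPM in the 6 other libraries. Of all genes tested, 1.13% were lower in replicate 3 without overlap. Slc25a11 stood at 74.5, 78.3 and 74.1 CPM in replicate 3 and at 61.5 to 69.5 CPM in the others, and 1.37% of genes were higher in that way. The X-linked carriers Slc25a5, Slc25a14, Slc25a43 and Slc25a53 overlapped between replicate 3 and the others: Slc25a5 averaged 209 ± 14.3 CPM in replicate 3 (SD, n = 3) and 206 ± 17.1 CPM in replicates 1 and 2 (SD, n = 6).

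Ucp2, a carrier of the same family under another symbol that is known as an uncoupling protein and exporter of carboxylates, stood at 749, 907 and 554 CPM in WT, 700.2, 484 and 601 CPM in APP/PS1, and 611, 435 and 453 CPM in APP/PS1xRIPK1KD. Per kilobase of the principal transcript it came to 153 ± 38.7 CPM, which differs from Slc25a5 by less than its own SD. Over the union of all annotated exons it came to 87.4 CPM per kb, beside 126 for Slc25a5, so this closeness depends on the length chosen. The log2 difference of APP/PS1xRIPK1KD from WT was -0.56 ± 0.199 (SE, edgeR FDR = 0.662), and WT replicate 3 overlapped that group. Ucp1 had 0 counts in all libraries and Ucp3 1 count in 1 library. Of the 10 measured genes of the import machinery that inserts carriers into the inner membrane, the 12 of other mitochondrial transport and the 20 of the tricarboxylic acid cycle and malate-aspartate shuttle, edgeR and DESeq2 called 0 in any comparison. At an unadjusted p under 0.05, both tools gave 0 import and 0 other transport genes, and 0, 2 and 1 of the enzymes in the 3 comparisons. Of all genes, 6.14%, 4.78% and 6.18% had one in edgeR and 6.85%, 5.64% and 7.00% in DESeq2. Among the enzymes, Got1, the cytosolic partner of Slc25a12 in that shuttle, stood at 4.16, 9.88 and 8.92 CPM in WT, 3.02, 3.35 and 6.14 CPM in APP/PS1, and 9.81, 8.22 and 6.88 CPM in APP/PS1xRIPK1KD. The last group lay above APP/PS1 in all libraries, by a log2 difference of 0.99 ± 0.421 (SE, edgeR FDR = 0.994). Suclg2, a subunit of succinyl-CoA ligase, averaged 40.0 ± 4.78, 39.7 ± 5.68 and 30.2 ± 1.31 CPM (SD, n = 3 each), and its APP/PS1xRIPK1KD libraries lay under all others. Of 7 tested regulators of mitochondrial biogenesis, both tools called 0. For APP/PS1 against WT, 4 in edgeR and 3 in DESeq2 had an unadjusted p under 0.05, beside 6.14% and 6.85% of all genes. In APP/PS1xRIPK1KD, both tools gave 0 against APP/PS1 and 1 against WT. The 4 split in direction. Tfam, which packages mitochondrial DNA and is a factor in its transcription, stood at 12.9, 14.9 and 17.3 CPM in WT, 20.2, 20.9 and 27.4 CPM in APP/PS1, and 22.7, 21.4 and 20.7 CPM in APP/PS1xRIPK1KD. Both transgenic groups lay above WT, by log2 differences of 0.60 ± 0.212 (SE, edgeR FDR = 0.787) and 0.52 ± 0.211 (SE, edgeR FDR = 0.756). Gabpa, a subunit of an ETS-family factor, also lay higher in APP/PS1 than in WT (0.44 ± 0.193 SE, edgeR FDR = 0.795). Polrmt, the mitochondrial RNA polymerase, stood at 36, 21.4 and 24.4 CPM in WT and 17.1, 12.9 and 21.1 CPM in APP/PS1, lower without overlap (log2 difference -0.68 ± 0.263 SE, edgeR FDR = 0.793). Nrf1, a transcription factor of nuclear genes for mitochondrial proteins, had a log2 difference of -0.46 ± 0.208 (SE, edgeR FDR = 0.805), and its libraries overlapped.

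In the authors' deposited table for APP/PS1 against WT, 40 carriers were listed, 0 had an FDR under 0.05 and 2 had a p under 0.05. These were Slc25a24 and Slc25a37, the latter with a log2 fold change of 0.88 and an FDR of 0.558. Of the 39 carriers tested both there and here, 5 had the opposite sign in the authors' deposited table: Slc25a14, Slc25a20, Slc25a28, Slc25a36 and Slc25a53.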

How the data were processed

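Poly(A)-primed RNA of 9 sorted endothelial samples, 1 mouse each per the labels, was made into Smart-seq2 libraries, which keep no strand and carry no molecular identifiers, so reads of overlapping genes cannot be told apart by strand and the limits given for 0 counts cover counting error only. The 95% intervals come from the fitted model and include the spread between libraries. The authors deposited expected counts per gene symbol, and the submitters' processing notes name Bowtie 0.12.2, RSEM, edgeR 3.10.2 and build mm10 (GRCm38). The gene annotation is not given in sources used here. Of the deposited values 28.3% were not whole. The authors also deposited an edgeR table of APP/PS1 against WT with log2 fold changes and log2 CPM, a likelihood ratio statistic as a further score, p-values and FDR.

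Expected counts were rounded, filtered by filterByExpr (minimum count 10, minimum total 15) to 13317 genes, and scaled by TMM. One edgeR 4.0.16 quasi-likelihood model (robust, a term for each genotype) was fitted to the 9 libraries together in R 4.3.3 with limma 3.58.1, and 3 contrasts were tested 2-sided with Benjamini-Hochberg adjustment over all genes at FDR 0.05. The same steps were tested on simulated data. Fold changes are on the fitted log2 scale. Members' positions and principal transcript lengths come from GENCODE M21 on GRCm38, matched by symbol for 47 of 47. Figures and tables used Python 3.11.15 with pandas 2.3.3, numpy 2.4.6 and matplotlib 3.10.9.

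Values in every library are given for the 8 members highest per kilobase, the 4 with the smallest p in each comparison, those of at least 2 CPM whose genotypes did not overlap, the adenine nucleotide, phosphate, iron, aspartate-glutamate and glutathione carriers, and members on the X chromosome where they had counts. In each other list, up to 2 genes with the smallest p in a comparison were eligible to be named. Nrf1, Ucp1 and Ucp3 were named outside this rule. Members given as means or counts only were chosen for their roles, and 1 member is counted throughout but not reported here by name. The members and gene lists were chosen with earlier results of these data known. Alternatives were DESeq2 1.42.0, RLE scaling, no filter, Rn45s left out, a replicate block, replicates 1 and 2 alone and each library left out. p-values measure the spread between these animals.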

Additional observations from a re-analysis of the deposited data

How the results depend on the processing

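No Slc25a member was called at an FDR of 0.05 in any of the 15 alternatives of any comparison. Counts of all genes called were less stable. DESeq2 called 45, 19 and 62 genes (APP/PS1 against WT, APP/PS1xRIPK1KD against APP/PS1 and APP/PS1xRIPK1KD against WT, in this order throughout), where edgeR called 3, 1 and 5. With no filter on low counts the counts of APP/PS1 and APP/PS1xRIPK1KD against WT were 7 and 14. Replicates 1 and 2 alone gave 0 genes for APP/PS1xRIPK1KD against APP/PS1 and 8 for APP/PS1xRIPK1KD against WT, and median log2 fold changes of the members of 0.047 and 0.068. Leaving out 1 library gave 1 to 5, 0 to 4 and 2 to 9 genes, and member medians of -0.063 to 0.070, -0.028 to 0.019 and -0.045 to 0.098. For APP/PS1 against WT the count fell to 1 without WT replicate 3 and reached 5 without APP/PS1 replicate 2. For APP/PS1xRIPK1KD against APP/PS1 it was 0 without replicate 1 or 3 of either genotype and 4 without replicate 2 of either. For APP/PS1xRIPK1KD against WT it was 2 without WT replicate 1, WT replicate 2 or APP/PS1xRIPK1KD replicate 1, 3 without APP/PS1xRIPK1KD replicate 3 and 9 without its replicate 2. Members with an unadjusted p under 0.05 numbered 1 to 6, 0 to 4 and 1 to 4 without 1 library, where 4.73% to 9.39%, 3.48% to 7.32% and 5.18% to 6.59% of all genes had one. The cause of these shifts was not tested. Deviations of same-numbered libraries from their group means correlated between -0.0187 and 0.0983, and those of differently numbered libraries between -0.101 and 0.0817. The number was therefore not treated as a pairing, although replicate 3 of every genotype shared the Y-linked transcripts. The pairs of replicate 3 libraries correlated at 0.0391, 0.0983 and 0.0539. With the replicate number as a block, 2, 0 and 0 genes were called, and 0 members. In that edgeR fit 2, 1 and 2 members had an unadjusted p under 0.05, beside 5.32%, 4.41% and 5.48% of all genes. The fit without the block gave 5, 1 and 3 members. Groups of 3 libraries and a floor of 3 counts per library (0.0541 to 0.189 CPM) limit what can be seen of the 10 members under 0.5 CPM.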

Other observations

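Carrier genes lie within 50000 bases of each other in 4 places of the genome (GENCODE M21, GRCm38), and in each pair 1 carrier averaged at least 5 CPM and the other under 0.6 CPM. The pairs were noticed after the values were seen, and no test was made. Slc25a24 (chr3:109123149-109168457) averaged 18.5 CPM per kb and Slc25a54, which ends 6461 bases before it on the same strand, 0.00418. Slc25a23 (chr17:57043711-57059863) averaged 2.46 CPM per kb, and Slc25a41, 2056 bases away on the same strand, had 0 counts. On the X chromosome, Slc25a5 averaged 167 CPM per kb and Slc25a43, which ends 18448 bases before it on the same strand, 0.0612. Slc25a29 and Slc25a47 are transcribed away from each other on chromosome 12 with 162 bases between their annotated starts, and averaged 2.81 and 0.354 CPM per kb.

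Slc25a34, which the filter left out, had 0 counts in all WT libraries, 0, 1 and 77 counts in APP/PS1, and 4, 0 and 37 counts in APP/PS1xRIPK1KD, so most of its counts came from replicate 3 of the transgenic groups. Slc25a43 had 6 counts in APP/PS1 replicate 1, 13 in APP/PS1xRIPK1KD replicate 3 and 0 elsewhere.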
